A study of Mus musculus with 42 samples.

Results

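Fibroblast growth factors (FGFs) bind receptor tyrosine kinases on the cell surface and signal through the adaptor FRS2, RAS and the RAF, MEK and ERK kinases. Active ERK switches on a small set of genes that report on the pathway and restrain it. Among them are the Sprouty proteins, which dampen receptor signalling upstream of ERK, the phosphatase DUSP6, which removes the activating phosphates from ERK in the cytoplasm, and the ETS transcription factors ETV4 and ETV5. In mouse embryonic stem cells (ESCs) FGF/ERK signalling drives the exit from the naive pluripotent state, and in the gastrulating embryo FGFs and FGFR1 act in the primitive streak. The genes described here are these 10: the receptors Fgfr1, Fgfr2, Fgfr3 and Fgfr4, the feedback inhibitors Spry1, Spry2, Spry4 and Dusp6, and the ETS factors Etv4 and Etv5. They were chosen by name, by the RefSeq accession that the array annotation gives each probe, out of 22278 genes with a probe.

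The study differentiated a single line of dual reporter mouse ESCs, in which GFP reports Gsc and RedStar reports Hhex, into anterior definitive endoderm (ADE), the endoderm that forms at the front of the gastrula. The untreated groups were ESCs, unsorted cells of day 2 (d2), cells sorted as GSC negative (G-) or positive (G+) at d3 and d4, cells sorted as GSC negative (G-), low (Glow) or high (Ghigh) at d5, and GSC high cells sorted as HHEX negative (G+H-) or positive (G+H+) at d6. Further d6 cultures, for which the labels name no sort, received DMSO throughout (Control), DMSO before and 2.5 uM EPZ6438 during differentiation (ADE_EPZ), or EPZ6438 before and DMSO during differentiation (ES_EPZ). EPZ6438 inhibits EZH2, the catalytic subunit of the Polycomb complex PRC2, which deposits H3K27me3. According to the published scheme, all differentiating cultures received Activin A, with BMP4 early on and FGF4, EGF and insulin from d2, so that FGF ligand was supplied in the medium of every later group. Each of the 14 groups had 3 one-colour Agilent arrays, described as independent experiments, and 42 arrays in all.

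The 42 arrays each detected between 24504 and 40428 probes well above background, and 3 arrays per group limit the precision of each value. The mean log2 level of Gsc was 8.23 in d3G- and 11.78 in d3G+, in the direction of the gate. Summed over 5 ESC markers (Pou5f1, Nanog, Zfp42, Esrrb and Klf2) the log2 level was 15.61 to 16.46 in ESCs and 10.08 to 10.2 in d6G+H+. Over 5 ADE markers (Hhex, Cer1, Sox17, Foxa2 and Cxcr4) it was 8.09 to 8.72 in ESCs and 16.39 to 16.54 in d6G+H+. These arrays measure whole populations, so fewer cells of a type and less RNA per cell cannot be told apart. The untreated series occupied slides 1 to 5 and the EPZ6438 series slides 6 to 8, with a newer version of the scanner software, so that series and slide are confounded and cannot be told apart.

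The values below are log2 intensities of the brightest probe of each gene, from the normalised table that the authors deposited. A gene was called in a comparison where limma's adjusted p was at most 0.01 and the absolute log2 change at least 1.5. All 10 genes had a probe, 16 in all. The probes of 8 of the 10 were well above background on all 42 arrays, and those of Fgfr4 and Spry4 on 41 of 42, the exception being replicate 2 of d5G- for both.

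Promoters of 4 of these genes are shown. As described below, Dusp6 rose at d3, and Spry2 and Etv5 fell in the later GSC positive populations. The Fgfr4 promoter was the only one of those at hand that held CCGGAA, the form of the ETS motif searched for. RefSeq sequences of build GRCm38.p6 were at hand for 7 of the 10 genes, with 9 start sites. Each sequence is the 250 bases before the start, 5′ to 3′ on the strand of the gene. Capitals mark a match to the ETS form CCGGAA or to the cAMP response element TGACGTCA on either strand. Shorter forms of the ETS motif, such as GGAA, were neither searched for nor marked.
Fgfr4 (chr13:55152568-55152817, plus strand): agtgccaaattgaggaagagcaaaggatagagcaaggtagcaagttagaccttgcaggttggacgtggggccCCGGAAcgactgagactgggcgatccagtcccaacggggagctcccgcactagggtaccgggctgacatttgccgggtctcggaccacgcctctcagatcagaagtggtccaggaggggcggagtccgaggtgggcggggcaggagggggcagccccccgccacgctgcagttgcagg
Spry2 (chr14:105896820-105897069, minus strand): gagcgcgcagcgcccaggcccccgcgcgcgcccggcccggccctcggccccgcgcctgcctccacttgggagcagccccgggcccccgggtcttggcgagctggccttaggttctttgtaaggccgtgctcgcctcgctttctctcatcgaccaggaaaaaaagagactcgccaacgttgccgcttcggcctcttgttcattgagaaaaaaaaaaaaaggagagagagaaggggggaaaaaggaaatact
Dusp6 (chr10:99262981-99263230, plus strand): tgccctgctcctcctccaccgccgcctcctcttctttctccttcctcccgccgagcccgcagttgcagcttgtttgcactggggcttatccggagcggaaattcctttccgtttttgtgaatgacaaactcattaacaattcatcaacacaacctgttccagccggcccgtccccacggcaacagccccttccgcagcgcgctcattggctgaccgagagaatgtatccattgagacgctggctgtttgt
Etv5 (chr16:22439571-22439820, minus strand): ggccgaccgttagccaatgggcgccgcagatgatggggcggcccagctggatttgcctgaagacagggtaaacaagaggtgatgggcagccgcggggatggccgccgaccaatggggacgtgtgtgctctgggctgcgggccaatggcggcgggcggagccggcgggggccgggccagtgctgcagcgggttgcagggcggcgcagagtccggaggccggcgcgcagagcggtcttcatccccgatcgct

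The ETS form CCGGAA was present in 1 of the 9 windows, that of Fgfr4, 178 bases before the start. It was in 12% of 32851 windows of the same length over all genes. The cAMP response element was in none of the 9 windows and in 1.55% of all. The GC content of the 9 windows ran from 44.0% for Fgfr2 to 72.8% for the second Fgfr3 start, against a median of 52.4% over all windows.

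Etv5 was high in ESCs and fell by stages in the GSC positive lineage. This ETS factor supports the proliferation of ESCs and their exit from the naive state. Its probe read 14.36, 14.33 and 14.13 in the 3 ESC arrays, 13.68, 13.80 and 13.56 in d3G+, 12.80, 13.41 and 12.92 in d4G+, 12.59, 12.59 and 12.49 in d5Ghigh, and 11.91, 12.36 and 11.47 in d6G+H+. The arrays of d3G+ and every later GSC positive group all lay below those of ESCs. The difference from ESCs was -0.59 ± 0.21 (log2, SE) in d3G+ and -1.23 ± 0.21 in d4G+, neither past both thresholds, and Etv5 fell by 1.71 ± 0.21 in d5Ghigh (limma adjusted p = 6.37e-08). In d6G+H+ it fell by 2.36 ± 0.21, or 5.13-fold (limma adjusted p = 4.08e-11). Within the single slide that held both groups, the d6G+H+ difference was -2.42. Of the 10 genes, Etv5 had the widest range of group means over the untreated groups, 2.77, from 14.37 ± 0.10 in d3G- to 11.60 ± 0.26 in d6G+H- (SD, n = 3).

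Etv5 also read lower in the GSC positive than in the GSC negative cells of the same day. In the G- populations it stayed near the ESC level, with 14.33, 14.48 and 14.29 at d3 and 14.07, 14.17 and 13.92 at d4, and at d5 it read 13.31, 13.96 and 13.93. All 3 GSC positive arrays lay below all 3 GSC negative arrays on each of these days. The log2 difference was -0.69 ± 0.21 at d3 (limma adjusted p = 0.0516), -1.01 ± 0.21 at d4 (limma adjusted p = 0.00175), and at d5 -1.05 ± 0.21 for Glow (limma adjusted p = 0.00348) and -1.18 ± 0.21 for Ghigh (limma adjusted p = 0.000247). None of these reached the fold threshold of 1.5, and with a threshold of 1 those of d4 and d5 would be called.

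Spry2, a Sprouty inhibitor of receptor tyrosine kinase signalling, followed a similar course. It read 9.64, 9.64 and 9.26 in ESCs, 9.06, 9.05 and 8.99 in d3G+, 8.27, 8.79 and 8.15 in d4G+, 7.53, 7.63 and 7.31 in d5Ghigh, and 7.53, 7.87 and 7.32 in d6G+H+. Each later step down to d5Ghigh lay below the one before without overlap of arrays, and d5Ghigh and d6G+H+ overlapped. Relative to ESCs Spry2 fell by 2.02 ± 0.20, or 4.06-fold, in d5Ghigh (limma adjusted p = 6.93e-10). In d6G+H+ it fell by 1.94 ± 0.20 (limma adjusted p = 9.89e-10). The 3 slides that held both ESC and d5Ghigh arrays gave differences of -2.11 to -1.95. The G- populations read higher than their GSC positive partners in every pair of arrays, and the difference was -0.49 ± 0.20 at d3, -0.80 ± 0.20 at d4, -0.78 ± 0.20 for Glow and -1.33 ± 0.20 for Ghigh at d5 (limma adjusted p = 0.22, 0.00956, 0.0289 and 2.11e-05), again short of the fold threshold.

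The ESC markers moved in the same populations. Their summed log2 level was 14.01 to 14.24 in d4G- and 11.08 to 12.82 in d4G+, and 12.38 to 13.89 in d5G- and 9.74 to 11.04 in d5Ghigh, and all 5 markers stayed above background on every array of these groups. The part of these markers in the Etv5 and Spry2 differences was not tested.

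Dusp6 took another course, rising at d3 and returning. Its probe read 12.34, 12.58 and 12.31 in ESCs, 12.94, 12.66 and 12.57 at d2, 13.71, 13.20 and 13.53 in d3G-, and 13.86, 13.89 and 14.06 in d3G+. The d3G+ arrays were the highest of all 14 groups and overlapped no other group, d3G- included. Dusp6 rose by 1.52 ± 0.29, or 2.87-fold, in d3G+ over ESCs (limma adjusted p = 0.000161), and the difference was 1.07 ± 0.29 in d3G- (limma adjusted p = 0.0142). With d3G+ replicate 3, ESC replicate 1 or ESC replicate 3 left out, the d3G+ change was 1.46, 1.49 or 1.47, just under the fold threshold. On the 1 slide that held both groups it was 1.27, and with slide as a fixed or random block it was 1.36 or 1.45, so the call was also lost there, as it was with 75th percentile scaling, at 1.45. By d5 the level was 12.15, 12.89 and 13.43 in G-, 11.23, 11.81 and 12.49 in Glow and 11.64, 11.95 and 12.68 in Ghigh, so that the d5 groups spread widely and overlapped each other. In d6G+H+ it read 12.36, 12.48 and 12.13, a difference of -0.09 ± 0.29 from ESCs.

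The remaining ETS factor Etv4, a close relative of Etv5, held its level for longer. The arrays of every untreated group from ESCs to d5 lay between 11.60 and 12.77, and its group means at d5 were 12.29 ± 0.19 in G-, 12.14 ± 0.17 in Glow and 12.21 ± 0.08 in Ghigh (SD, n = 3). At d6 it read 11.47, 11.98 and 11.27 in G+H- and 10.76, 11.25 and 10.66 in G+H+. The d6G+H+ arrays lay below all arrays of the other untreated groups. The difference of d6G+H+ from ESCs was -1.06 ± 0.21 (limma adjusted p = 0.000185), under the fold threshold, and a second, dimmer Etv4 probe gave a difference in the same direction, with a limma adjusted p of 0.000485.

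**Figure D1:**
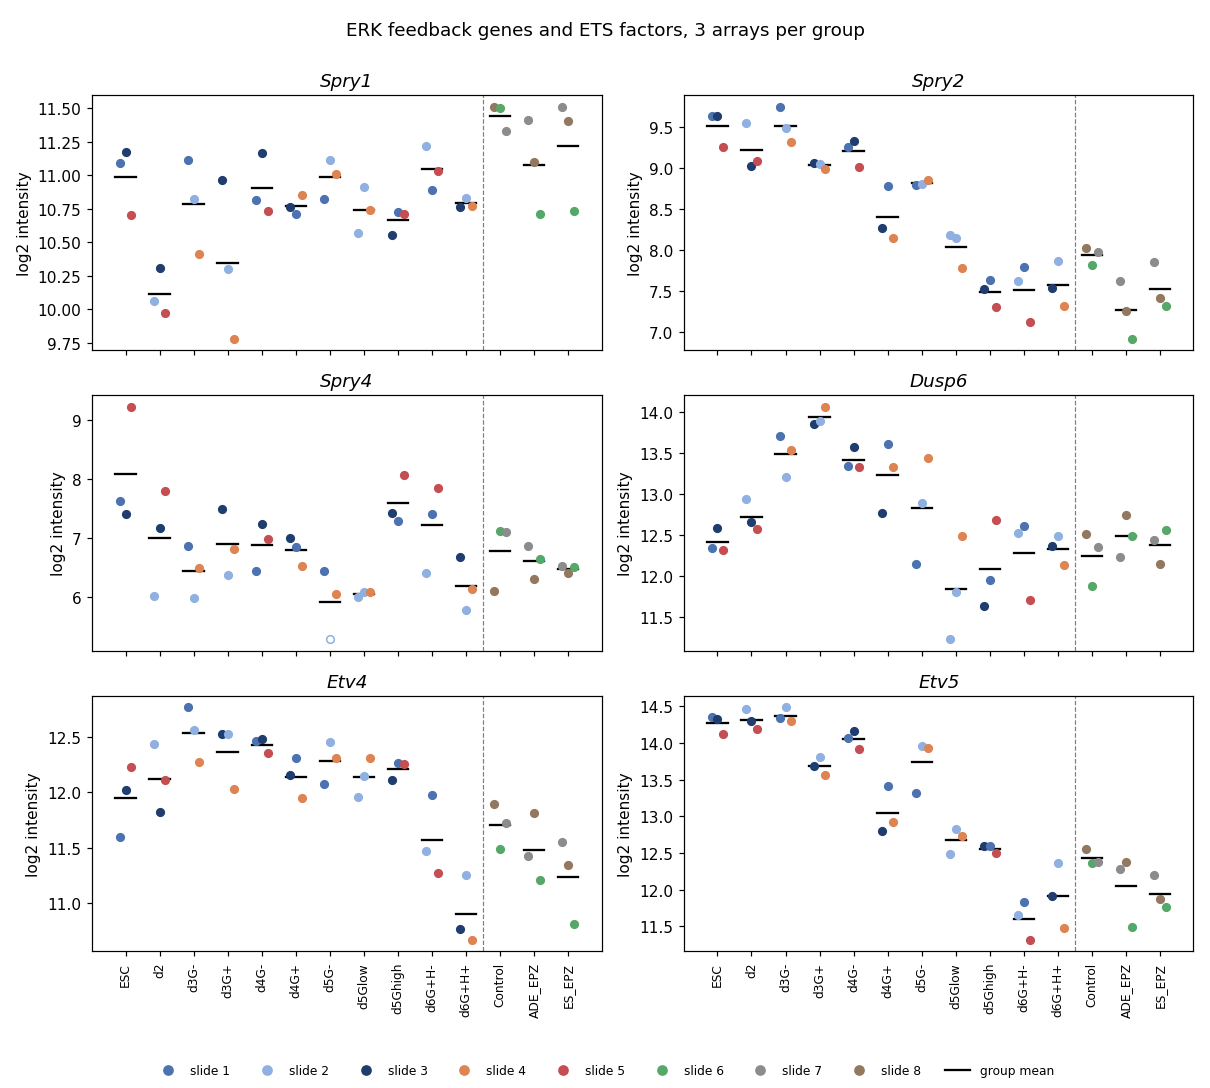
Log2 intensity of the Sprouty genes, Dusp6, Etv4 and Etv5 (y axes) in the 14 groups (x axis), with 1 point per array coloured by slide and a black line at the group mean; open points are not well above background and the dashed line divides the untreated from the EPZ6438 series. Etv5 and Spry2 step down along the GSC positive groups, Dusp6 is highest in d3G+ at 13.93, and the Spry4 arrays of slide 5 lie above those of the other slides in ESC, d2 and d5Ghigh.

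Spry1 and Spry4 behaved differently from Spry2. Spry1 had the second smallest range of means over the untreated groups of the 10 genes, 0.93, and was called in no comparison. Its lowest group was d2, with 10.07, 10.31 and 9.97, all 3 below the ESC arrays of 11.09, 11.17 and 10.71, a difference of -0.88 ± 0.22 (limma adjusted p = 0.00962) that fell short of the fold threshold. By d3G- it read 11.12, 10.82 and 10.41, which overlapped ESCs. In d3G+ it read 10.963, 10.305 and 9.78, a difference from ESCs of -0.64 ± 0.22 (limma adjusted p = 0.0383), also with overlap.

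Spry4 had the largest spread within groups of the 10 genes, with a median SD of 0.45 over the untreated groups. It read 7.62, 7.41 and 9.21 in ESCs, 6.86, 5.99 and 6.49 in d3G-, and 6.67, 5.78 and 6.14 in d6G+H+, and it was called lower than ESCs in both. The log2 change was -1.64 ± 0.42 in d3G- (limma adjusted p = 0.00893) and -1.89 ± 0.42 in d6G+H+ (limma adjusted p = 0.000615). The ESC value of 9.21 came from replicate 3, on slide 5. Without that array the differences were -1.07 (limma adjusted p = 0.145) and -1.32 (limma adjusted p = 0.02), and neither was called, and the d3G- call was also lost without ESC replicate 1 or any one of the d3G- arrays. The Spry4 mean over the untreated arrays was 5.99 on slide 2 (8 arrays) and 7.98 on slide 5 (5 arrays), with groups spread unequally over slides. With slide as a fixed block the differences were -0.87 and -1.18, and within the 1 slide that held both groups they were -0.76 and -0.74.

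The other Spry4 contrast was at d5. It read 7.43, 7.28 and 8.07 in Ghigh, 6.43, 5.29 and 6.05 in G-, and 5.99, 6.08 and 6.08 in Glow, so the Ghigh arrays lay above both other d5 groups without overlap. Ghigh exceeded G- by 1.67 ± 0.42 (limma adjusted p = 0.0121), just outside the threshold on p. With the replicate number as a block the same difference had a limma adjusted p of 0.00703 and was called. On the 1 slide that held both groups the difference was 0.85. No slide held both Ghigh and Glow arrays. The Spry4 mean over the untreated arrays was 6.98, 7.2 and 7.98 on slides 1, 3 and 5, which held Ghigh. It was 5.99 and 6.35 on slides 2 and 4, which held Glow. For Spry4, population and slide therefore cannot be told apart between Ghigh and Glow.

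Fgfr1, the main FGF receptor of ESCs and of the epiblast, kept its level to d5 and fell in the sorted groups of d6. It read 12.41, 12.58 and 11.33 in ESCs, 13.40, 13.17 and 12.62 in d3G+, 12.93, 12.67 and 11.19 in d5Ghigh, 10.73, 10.86 and 10.55 in d6G+H-, and 10.61, 10.997 and 10.09 in d6G+H+. All 6 arrays of the sorted d6 groups lay below every array of the other groups except 1 of ES_EPZ, which read 10.95. Fgfr1 fell by 1.54 ± 0.39, or 2.91-fold, from ESCs to d6G+H+ (limma adjusted p = 0.00226). From d5Ghigh to d6G+H- it fell by 1.55 ± 0.39 (limma adjusted p = 0.00965). The 2 sorted d6 groups differed from each other by -0.15 ± 0.39. In the d6 Control cultures of the EPZ6438 series Fgfr1 read 12.94, 12.34 and 12.34.

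Replicate 3 of Fgfr1 was the lowest of its group in each of the 11 untreated groups, and replicate 3 was hybridised on slides 4 and 5. On the slide that held both groups the ESC to d6G+H+ difference was -1.97, and on the 2 slides that held both d5Ghigh and d6G+H- the differences were -1.81 and -0.64. The call between d5Ghigh and d6G+H- was lost without d5Ghigh replicate 1 or 2 or any one of the 3 d6G+H- arrays, with differences of -1.22 to -1.62. That of d6G+H+ against ESCs was lost without ESC replicate 1 or 2 or d6G+H+ replicate 3, with differences of -1.30 to -1.39. A second Fgfr1 probe gave -1.53 for d6G+H+ against ESCs (limma adjusted p = 1.23e-05), and the dimmest probe gave -0.25 (limma adjusted p = 0.403), so the probes of the gene disagree.

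Fgfr4, a receptor of early endoderm and liver, was highest in ESCs of the untreated groups, at 7.5, 7.38 and 7.76, and read 5.86, 6.42 and 5.77 in d3G+, all below ESCs. It fell by 1.53 ± 0.27, or 2.89-fold, in d3G+ (limma adjusted p = 4.12e-05), a log2 change that was -1.49 when recomputed from the scanner values and so lay at the fold threshold. The differences in d3G- and d4G+ were -1.36 ± 0.27 and -1.42 ± 0.27 (limma adjusted p = 0.000544 and 1e-04), short of the fold threshold. Leaving out ESC replicate 3, d3G+ replicate 1 or d3G+ replicate 3 brought the d3G+ change to -1.43, -1.45 or -1.41, and leaving out ESC replicate 2 or d4G+ replicate 1 brought that of d4G+ to -1.51 or -1.56, which would be called. In d6G+H+ Fgfr4 read 6.66, 7.54 and 6.98, which overlapped ESCs. A second, dimmer Fgfr4 probe was above background on 31 of 42 arrays, and with the mean of both probes the d3G+ change was -0.94 and was not called.

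Fgfr3 was highest in d4G+ and d5Glow among the untreated groups. It read 9.70, 8.19 and 8.58 in d4G+ and 8.82, 9.36 and 8.54 in d5Glow, against 7.06, 7.98 and 7.53 in ESCs. Both populations lay above their G- partners without overlap, which read 7.80, 7.45 and 7.52 at d4 and 8.39, 7.82 and 7.23 at d5. The difference was 1.23 ± 0.33 at d4 (limma adjusted p = 0.023) and 1.09 ± 0.33 at d5 (limma adjusted p = 0.103), and neither was called. The d4G+ to d4G- difference was 1.55 (limma adjusted p = 0.00641) without d4G+ replicate 2, and the d4G+ to ESC difference of 1.30 ± 0.33 became 1.61 without it and 1.53 without ESC replicate 2, all 3 past both thresholds. Without d4G+ replicate 1, the array at 9.70, they were instead 0.79 (limma adjusted p = 0.337) and 0.86 (limma adjusted p = 0.0931). The 2 slides that held both d4G+ and d4G- gave differences of 0.39 and 2.25. A second, dimmer Fgfr3 probe, above background on 41 of 42 arrays, followed the brightest with r = 0.46 over the group means, and with the mean of both probes the d4G+ to d4G- difference was 0.81 (limma adjusted p = 0.0898), so the order of the Fgfr3 groups rests on the brightest probe. Fgfr2 moved least, with a range of 0.82 between its lowest mean, 7.05 ± 0.05 in d3G-, and its highest, 7.87 ± 0.12 in d6G+H+ (SD, n = 3). The d6G+H+ arrays of Fgfr2, at 7.83, 8.01 and 7.79, lay above the ESC arrays of 7.32, 7.33 and 7.77, a difference of 0.40 ± 0.18 (limma adjusted p = 0.115).

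**Figure D2:**
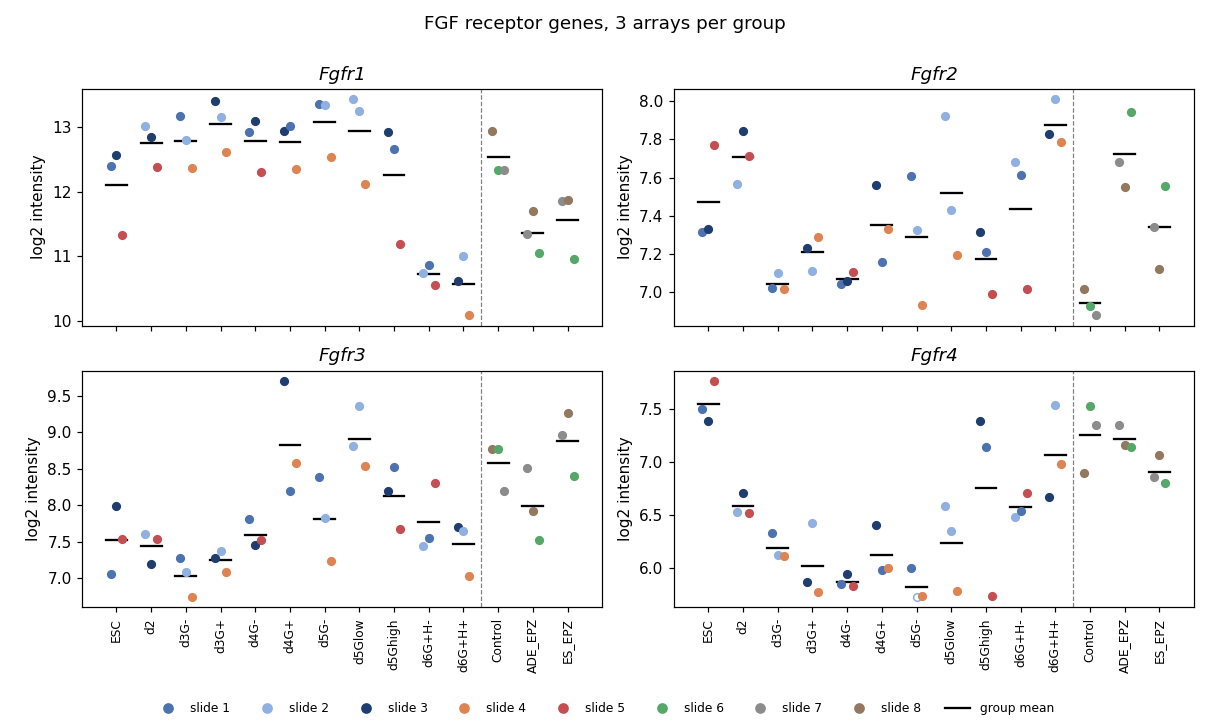
Log2 intensity of the 4 FGF receptor genes (y axes) in the 14 groups (x axis), with 1 point per array coloured by slide, a black line at the group mean, and a dashed line between the untreated and the EPZ6438 series; an open point is not well above background. Fgfr1 drops to 10.72 and 10.57 in the d6 sorted groups, and its arrays of slides 4 and 5 (orange and red) are the lowest of each untreated group.

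Counted against ESCs, calls of the 10 genes ranged from 0 to 4 by group. At d2 limma called 0 of 10, with 3 at an unadjusted p under 0.05, and 1.64% of all genes. In d3G- it called 1 of 10, Spry4, against 2.32% of all genes, and 1.24% for calls of lower genes alone. In d3G+ it called 2 of 10, Fgfr4 lower and Dusp6 higher, against 6.36%. In d4G+ it called 0 of 10, with 6 at an unadjusted p under 0.05, against 7.14%. In d5Ghigh it called 2 of 10, Spry2 and Etv5, against 7.9%, and 4.4% for lower genes alone. In d6G+H+ it called 4 of 10, Fgfr1, Spry2, Spry4 and Etv5, all lower, against 10.7%, and 5.16% for lower genes alone. These comparisons share their 3 ESC arrays. The median log2 change of the 10 genes in d6G+H+ was -0.77, and that of all genes was 0 to 2 decimals.

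Between the sorted populations of a day, calls were few. Limma called 0 of 10 genes for d3G+ against d3G- (2 at an unadjusted p under 0.05; 1.74% of all genes), for d4G+ against d4G- (3; 2.19%), for d5Glow against d5G- (4; 0.718%), for d5Ghigh against d5G- (6; 2.47%) and for d5Ghigh against d5Glow (3; 0.251%). The change in the G+ to G- difference from d3 to d4 was largest for Fgfr3, 1.02 ± 0.47, and limma called 0 of all 22278 genes in this test, with an adjusted p of 1 for each of the 10 and 1 of them, Fgfr3, at an unadjusted p under 0.05. From d5Ghigh to d6G+H- limma called 1 of 10, Fgfr1, against 2.1% of all genes, and 1 in the lower direction against 0.754%. For d6G+H+ against d6G+H- it called 0 of 10, with 3 at an unadjusted p under 0.05, and 0% of all genes.

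**Figure D3:**
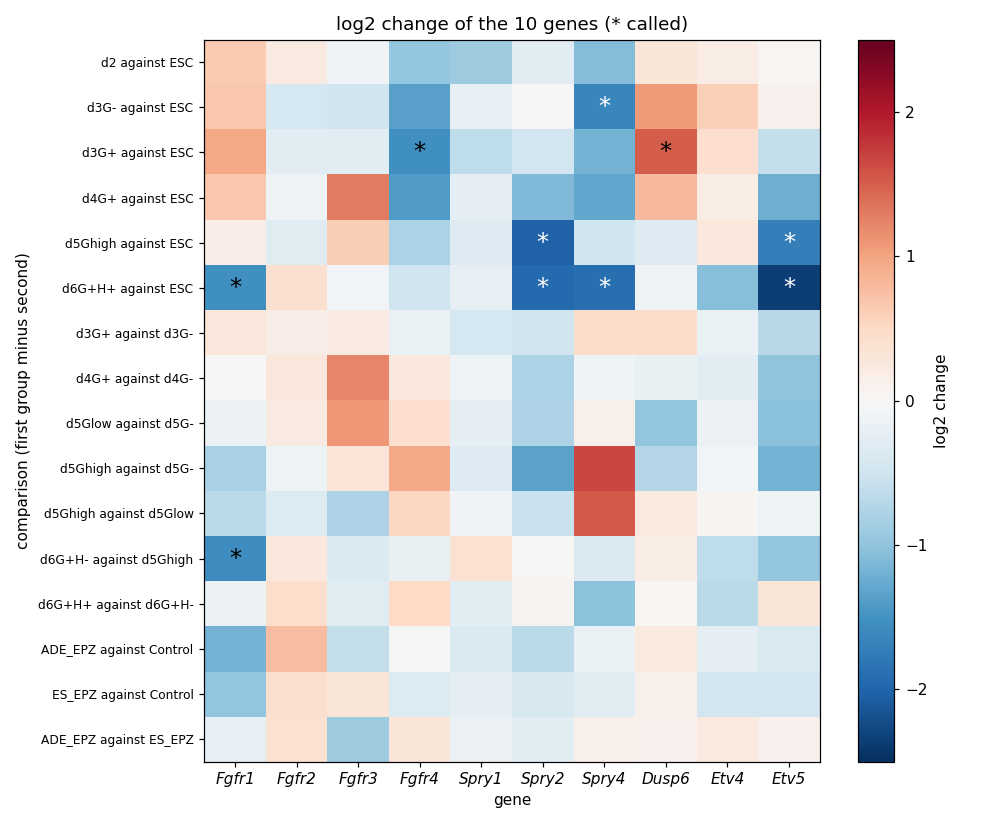
Log2 change (colour, red higher and blue lower in the first group named) of the 10 genes (x axis) in the 16 comparisons (y axis), with an asterisk where limma called the gene. The 10 asterisks fall on 6 genes and on comparisons with ESCs, except that of Fgfr1 in d6G+H- against d5Ghigh, and the deepest blue is Etv5 in d6G+H+ against ESC, at -2.36.

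In the EPZ6438 series limma called 0 of the 10 genes in ADE_EPZ against Control (3 at an unadjusted p under 0.05, and 2.65% of all genes). It called 0 in ES_EPZ against Control (5, and 0.404%) and 0 in ADE_EPZ against ES_EPZ (2, and 0.126%). The Control arrays serve both of the first comparisons. Fgfr1 read 12.94, 12.34 and 12.34 in Control, 11.34, 11.70 and 11.05 in ADE_EPZ and 11.86, 11.87 and 10.95 in ES_EPZ, so that the arrays of both regimens lay below all Control arrays. The difference was -1.18 ± 0.39 for ADE_EPZ (limma adjusted p = 0.0442) and -0.98 ± 0.39 for ES_EPZ (limma adjusted p = 0.226), and within slides it ran from -1.30 to -1.0 and from -1.39 to -0.48. The second Fgfr1 probe gave -1.24 for ADE_EPZ (limma adjusted p = 0.00106), and the dimmest gave 0.13.

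Fgfr2 went the other way. It read 7.02, 6.93 and 6.88 in Control, 7.68, 7.55 and 7.95 in ADE_EPZ and 7.34, 7.12 and 7.56 in ES_EPZ, again without overlap with Control. The difference was 0.78 ± 0.18, or 1.72-fold, in ADE_EPZ (limma adjusted p = 0.0031) and 0.40 ± 0.18 in ES_EPZ (limma adjusted p = 0.334), both short of the fold threshold. A second, dimmer Fgfr2 probe, above background on 39 of 42 arrays, gave 0.52 in ADE_EPZ (limma adjusted p = 0.131). Spry2 read 8.03, 7.82 and 7.98 in Control and 7.62, 7.26 and 6.92 in ADE_EPZ, a difference of -0.67 ± 0.20 (limma adjusted p = 0.0211). For Dusp6, Etv4, Etv5, Spry1, Spry4, Fgfr3 and Fgfr4 the ADE_EPZ to Control differences lay between -0.59 and 0.24, with limma adjusted p from 0.33 to 0.978. In ES_EPZ the difference was -0.48 ± 0.21 for Etv5, -0.47 ± 0.21 for Etv4 and -0.41 ± 0.20 for Spry2 (limma adjusted p = 0.288, 0.339 and 0.375). The Etv5 arrays did not overlap those of Control, while those of Etv4 and Spry2 did. For Dusp6, Spry1, Spry4, Fgfr3 and Fgfr4 the ES_EPZ differences lay between -0.35 and 0.30.

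Marker levels moved with the EPZ6438 regimens too. The summed log2 level of the 5 ADE markers was 14.09 to 14.63 in Control, 15.58 to 16.06 in ADE_EPZ and 15.37 to 15.97 in ES_EPZ. That of the 5 ESC markers was 9.38 to 9.89, 10.61 to 11.06 and 9.41 to 10.87. Of 4 mesendoderm markers (Gsc, Eomes, Mixl1 and Lhx1) the sum was 14.24 to 14.47, 13.93 to 14.44 and 14.25 to 14.55. Within it the means of Mixl1 were 9.61, 6.26 and 7.89, and those of Eomes 13.78, 12.37 and 13.12. Gsc and Lhx1 went the other way, with means of 11.98, 12.97 and 12.77 for Gsc and 10.73, 12.12 and 12.05 for Lhx1. Of 4 mesoderm markers (Mesp1, Kdr, Pdgfra and Hand1) the sum was 11.68 to 12.21, 11.32 to 11.61 and 11.67 to 11.98, lower in ADE_EPZ than in Control without overlap. Of 3 neurectoderm markers (Sox1, Pax6 and Nes) it was 10.59 to 11.05, 11.13 to 11.37 and 11.46 to 12.31, with Pax6 above background on no array of either regimen. Nes was the brightest of them, with means of 10.79, 11.21 and 11.91, whereas Sox1 did not rise, with means of 6.39, 6.35 and 6.18. Of 3 trophoblast markers (Cdx2, Elf5 and Tfap2c) the sum was 10.43 to 11.15, 10.65 to 11.22 and 10.93 to 11.25. Of 4 visceral endoderm markers (Ttr, Afp, Apoa1 and Rhox5) it was 10.98 to 11.80, 12.96 to 13.21 and 12.35 to 12.75. Rhox5 was the brightest of these, with means of 11.13, 12.97 and 12.48, whereas Afp had means of 6.24, 5.91 and 4.89, and the same sum was 12.53 to 12.59 in ESCs, where 2 of the 4 genes were above background on no array. The part of these markers in the Fgfr1 and Fgfr2 differences was not tested.

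**Figure D4:**
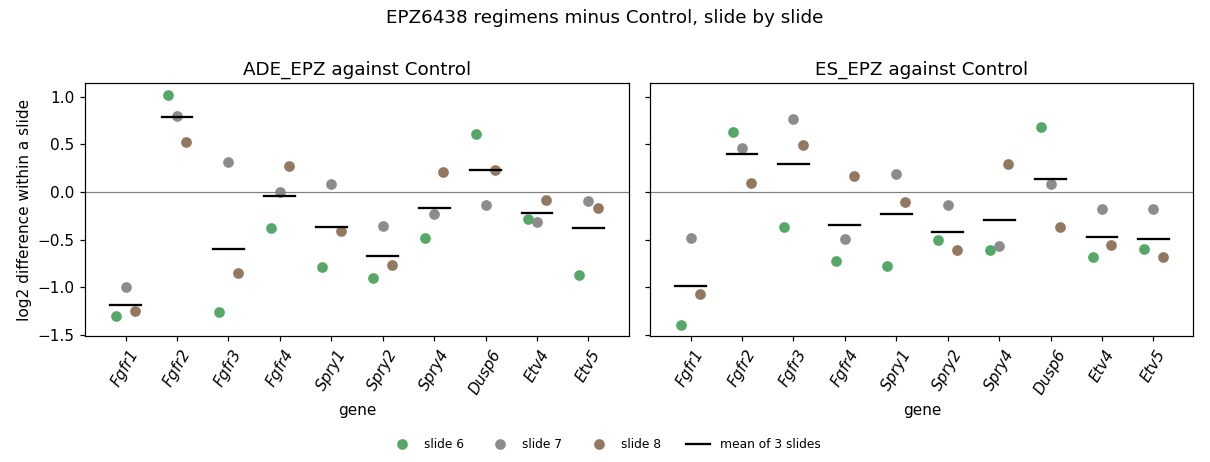
Difference in log2 intensity (y axis) between ADE_EPZ (left) or ES_EPZ (right) and Control for the 10 genes (x axis), 1 point for each of the 3 slides that held every regimen and a black line at their mean. All 3 slides place Fgfr1 below 0 and Fgfr2 above 0 in both regimens.

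The rest of the pathway was followed through 64 genes, all with a probe. The list holds 6 co-receptors and FGF-binding membrane proteins, 19 adaptors and cascade genes, 14 further feedback inhibitors, 18 further ERK-responsive genes and 7 ligands. Against ESCs, limma called 1.64% of all genes at d2, 2.32% in d3G- and 6.36% in d3G+. It called 7.14% in d4G+, 7.9% in d5Ghigh and 10.7% in d6G+H+. Of the 64 it called 8 at d2. The ligand genes Fgf8 and Fgf15 rose by 2.58 and 2.44 on the log2 scale, and the immediate early genes Fos, Egr1 and Ier3 fell, with log2 changes of -3.70, -2.34 and -2.18, Fos being above background on 2 of 3 d2 arrays. The median log2 change of the 64 was 0.07 and that of all genes 0.02. In d3G- it called 4 of 64: Fgf8 rose by 5.16, Fgf5 by 3.59 and the phosphatase gene Dusp2 by 2.83, while Fgf4, an autocrine ligand of ESCs, fell by 2.74. In d3G+ it called 10 of 64, with the largest log2 changes 6.18 for Fgf8, 5.47 for Fgf10 and 4.46 for Dusp2 among the higher genes and -4.04 for Fgf4, -1.83 for the adaptor Gab1 and -1.54 for the adaptor Frs3 among the lower. Fgf10 was above background on 1 of 3 ESC arrays and Frs3 on 1 of 3 d3G+ arrays. In d4G+ it called 9 of 64, with Fgf10 at 6.24, Fgf8 at 5.55 and Fgf5 at 4.50 the highest, Fgf3 at least 22.6-fold above its ESC level, which was above background on no array, and Gab1 at -2.43 and Fgf4 at -4.63 lower. In d5Ghigh it called 11 of 64, with Fgf10 at 6.35, Fgf8 at 6.08 and Fgf5 at 5.19 the highest and Fgf4 at -6.81, Gab1 at -2.25 and Dusp1 at -2.17 the lowest.

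In d6G+H+ limma called 18 of 64 genes against ESCs, 10 higher and 8 lower, and the median of the 64 was 0.02. The leading rises were those of the ligands Fgf5, by 6.65, Fgf8, by 6.19, and Fgf10, by 5.75. Fgf4 was at least 309-fold lower, with no d6G+H+ array above background and 13.14 in ESCs, Etv1, of the same ETS subfamily as Etv4 and Etv5, fell by 3.74, and the cyclin gene Ccnd1 fell by 3.54. From d5Ghigh to d6G+H- limma called 8 of 64, against 2.1% of all genes. The log2 changes included 2.44 for Fosb, 1.98 for Egr1 and 1.66 for Jun. They also included -3.14 for Fgf3, -2.65 for Etv1 and -2.49 for the ERK phosphatase gene Dusp9. Fgf3 was above background on 1 of 3 d6G+H- arrays. Of the 19 cascade genes, from Frs2 to Mapk3, 1 was called in d6G+H+ against ESCs, Gab1, which fell by 1.82.

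Of all genes, limma called 1.74% for d3G+ against d3G- and 2.19% for d4G+ against d4G-. At d5 it called 0.718% for Glow and 2.47% for Ghigh against G-. Pathway genes were called in these comparisons too. For d3G+ against d3G- they were Fgf10, higher by 4.77, Fgf3, higher by 3.59, and Dusp2, higher by 1.63, or 3 of 64. For d4G+ against d4G- they were Fgf10, by 3.81, Fgf3, by 3.26, and Flrt3, a membrane protein that binds FGF receptors, by 1.81. At d5, Fgf10 was called 1.87 higher in Glow and 1.91 higher in Ghigh than in G-, and the Fgf4 change in Ghigh was -2.20. In ADE_EPZ against Control, 3 of 64 were called, all lower, against 2.65% of all genes. The log2 changes were -1.65 for the RAS pathway inhibitor Spred1, -1.69 for Etv1 and -1.51 for Myc. Limma called 0 of 64 in ES_EPZ against Control (17 at an unadjusted p under 0.05), against 0.404% of all genes. It called 0 in ADE_EPZ against ES_EPZ (7), against 0.126%.

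As a description, the genes whose means over the 11 untreated groups followed each of the 10 most closely were sought among 7943 genes that were above background and spanned at least 1 on the log2 scale. For Etv5 they were Dppa5a (Pearson r = 0.991), a marker of pluripotent cells whose own span was 6.31, and Crmp1 (0.989). For Spry2 they were Inpp1 (0.991) and Tmco4 (0.984), for Fgfr1 the chromatin assembly factor gene Chaf1a (0.989) and the syndecan gene Sdc1 (0.985), and for Etv4 Ahcy (0.966) and Oxct1 (0.964). The gene closest to Dusp6 with a symbol was Msgn1 (0.944), a factor of presomitic mesoderm. For Fgfr3 they were Cd160 (0.970) and Gm38423 (0.968), for Fgfr4 Usp48 (0.959) and Dpp4 (0.945), for Spry1 Plin2 (0.927) and Tmsb4x (0.920), for Spry4 Pitpnc1 (0.905) and for Fgfr2 Hhip (0.900) and Yy2 (0.848). The 11 points share a time course and the same arrays, and no test was made.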

How the data were processed

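RNA of 14 groups was measured on 42 one-colour Agilent arrays, 3 per group, with group and replicate taken from the labels. The authors deposited 1 scanner file per array, with median foreground and background intensity per spot, and a table of log2 values made with limma by normexp background correction (offset 10) and quantile normalisation, 1 value per spot. The scanner files name design and annotation for mm9, of which no coordinates are used here.

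From the deposited log2 table, spots of a probe were averaged without those marked as outliers, giving 55681 probes. Genes are the RefSeq accessions of the untreated series' annotation. A RefSeq table of GRCm38.p6 named 21865 of 23171 accessions. The annotation of the EPZ6438 series differed for 2896 probes, none of a gene in the set of 10. The brightest probe over all arrays stood for a gene.

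Group means were fitted to the 42 arrays together by limma (version 3.58.1, R 4.3.3), and p values were adjusted over all probes of a comparison after Benjamini and Hochberg. Percentages of all genes count the brightest probe of each of 22278 genes. An exact permutation test of 3 arrays against 3 cannot go below 0.1. Where no array of a group was above background, the fold is a lower bound against, per array, the higher of the dimmest signal above background and the probe's own reading. For the bounds printed, of Fgf3 and Fgf4, it equals the fold of the group means. Arrays of the same replicate number deviated together (every r above 0.1) in 9 of 16 comparisons, and the fit with the number as a block is given where it changed a call.

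The 10 genes and the lists were chosen with earlier results of these data known. All 10 genes are named in every group. Of the pathway list, every called gene is named where 6 or fewer are called, otherwise the 3 largest in each direction. Others named were chosen after their values were seen. For pattern likeness, the 2 genes with the highest r were taken, and those without a symbol are not named.

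The fit was tested on simulated data. Out of 22278 genes, 200 were given a log2 change of 2.5. Of these, 189 were called for d6G+H+ against ESC, 196 for d3G+ against d3G- and 194 for ADE_EPZ against Control. In each, 0 unchanged genes were called. Changes smaller than 2.5 were not simulated, and the largest change described for the receptor and feedback genes was -2.36, for Etv5 in d6G+H+ against ESC. The simulation therefore cannot tell how often a change near the fold threshold of 1.5 would be called or missed. Alternatives were the values recomputed from the scanner intensity, a normexp offset of 50, no background correction, 75th percentile scaling, quantile normalisation within each series, fits to fewer arrays, slide or replicate number as a block, probes above background only, the mean of a gene's probes, other thresholds, and leaving out each array.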

Additional observations from a re-analysis of the deposited data

How the results depend on the processing

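The calls of Spry2 and Etv5 in d5Ghigh and d6G+H+ against ESC were kept under every alternative run, and 298 of 346 recomputed counts of called genes stayed within 1.5 times the main count. No call changed direction. The count for d3G- against ESC, 1 in the main fit, was 0 with an offset of 50, without background correction, in the fit to its own series, in the fit to the compared groups and with slide as a fixed or as a random block, and 2 with a log2 threshold of 1. With 75th percentile scaling the gene called in d3G- changed. Spry4 was lost, at -1.71 (limma adjusted p = 0.0684), and Fgfr4 was called lower, at -1.62 (limma adjusted p = 0.00534). The count for d3G+ against ESC, 2 in the main fit, was 1 when recomputed from the scanner values, with an offset of 50, without background correction, with 75th percentile scaling, with slide as a fixed or as a random block, and with the mean of all probes. Dusp6 was the gene lost with 75th percentile scaling and with the slide blocks, and Fgfr4 with the others. For d4G+ against ESC, 0 became 1 with 75th percentile scaling and 4 with a log2 threshold of 1. For d6G+H+ against ESC, 4 became 2 in the fit to the compared groups, where Fgfr1 and Spry4 were lost. Spry4 was also lost there with an offset of 50, at -1.46, and with slide as a fixed block, at -1.18. Fgfr1 was lost with the mean of all probes, at -1.1. For d6G+H- against d5Ghigh, 1 became 0 when recomputed from the scanner values, with an offset of 50, with 75th percentile scaling, in the fit to its own series, in the fit to the compared groups and with the mean of all probes. For d5Ghigh against d5G-, 0 became 1 with an adjusted p of at most 0.05, with only probes above background, and with replicate number as a block, and 2 with a log2 threshold of 1. For d4G+ against d4G- and d5Glow against d5G-, 0 became 1 with a log2 threshold of 1. The replicate block changed no other count. Leaving out single arrays gave 0 to 1 for d3G- against ESC, 0 to 2 for d3G+ against ESC, 0 to 2 for d4G+ against ESC, 3 to 4 for d6G+H+ against ESC, 0 to 1 for d4G+ against d4G-, 0 to 1 for d5Ghigh against d5G- and 0 to 1 for d6G+H- against d5Ghigh. The cause of these shifts was not tested. Deviations from the group mean were correlated between arrays of different groups of the same series. For 32 of the 42 arrays, the mean correlation was highest with arrays of their own replicate number. With 75th percentile scaling the median log2 change of all genes was 0.138 for d3G+ against d3G-, -0.112 for d6G+H- against d5Ghigh and -0.098 for d3G- against ESC. Probes near background, those of Fgfr4 and Spry4 in the middle stages, can understate a change.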
